A study of Caenorhabditis elegans with 3 samples.

Results

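The genes that give cholinergic motor neurons of Caenorhabditis elegans their identity were examined for binding of UNC-55 by chromatin immunoprecipitation followed by sequencing (ChIP-seq). The 10 genes were chosen by name from 19973 nuclear protein-coding genes, for their known roles. They were unc-17, cha-1, cho-1, ace-1, ace-2, unc-3, unc-4, vab-7, bnc-1 and mab-9. For each gene, every peak with its summit in the gene body or within 6 kb on either side was collected, with its signal, its rank and the distance of its summit from the transcript start. Because unc-17 and cha-1 overlap, the 10 genes form 9 separate loci covering 162 kb.

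UNC-55 is a nuclear receptor, the worm's counterpart of the vertebrate COUP-TF proteins. The series holds 1 group of 3 biological replicates and no comparison group, so no treated group is set against an untreated one. Per the deposited notes, the peaks of each replicate were called against 1 shared control. All 3 replicates were mixed sex L2 larvae of strain NC1639, whose integrated transgene wdIs49 places UNC-55a::GFP behind the ttr-39 promoter, with dpy-20(+) as the marker. That promoter serves to express transgenes in GABA motor neurons and the larvae were taken whole, so the cells in which any peak arose are not known. The precipitated protein is given as eGFP-unc-55 for all 3 replicates, but replicate 3 also carries a note of a C-terminal GFP-FLAG fusion, and the antibody field reads unc-55. A size range of 150 to 350 bp is given for replicates 1 and 2, and microtip sonication for replicate 3. This difference in preparation cannot be told apart from replicate 3 itself.

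Cholinergic motor neurons make acetylcholine, load it into synaptic vesicles and release it onto muscle and onto GABA neurons. After release the transmitter is split by acetylcholinesterases, and the choline is taken up again. The COE factor UNC-3 switches on many of these genes together, while homeodomain, zinc finger and T-box factors set the classes of motor neuron apart. UNC-55 itself normally acts in VD and AS motor neurons, where it keeps VD neurons from taking on the wiring of the DD class.

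The deposited data were peak lists. The 3 replicate lists held 30000, 30000 and 25262 peaks, and a pooled list made from all replicates held 30000. These lists were relaxed and contain weak calls by construction. The optimal list held 5993 peaks past the authors' reproducibility threshold, which were also the strongest 5993 of the pooled list, with signals from 45.8 to 1225 and a median of 108.5. Signal is the authors' own value in each list, on a scale that differs between lists, so replicates are set side by side by rank. Rank 1 is the strongest peak, and "the strongest 5993" of a replicate means a list cut to the length of the optimal list.

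To show what lies under the called summits, the 101 bp centred on the strongest optimal summit were read for each gene that had one. They are given on the plus strand of ce11 (RefSeq assembly WBcel235), 5′ to 3′. The window beside cho-1 is chrIV:13206046-13206146, with capitals on AGGTCA, the core motif of many nuclear receptors. The window beside ace-1 is chrX:16378047-16378147, with capitals on the bases that belong to a tRNA gene. The window beside unc-4 is chrII:9892559-9892659, and it has no capitals. The window beside vab-7 is chrIII:10931015-10931115. The 3 optimal summits of mab-9, at 3807, 3216 and 39 bp upstream of its start, gave chrII:512167-512267, chrII:512758-512858 and chrII:515935-516023. The last of these stops at the base before the transcript. In vab-7 and mab-9 the capitals mark the longest runs of bases that any pair of the 8 summit windows shared. The outer and the innermost mab-9 windows were added after their values were seen.
cho-1: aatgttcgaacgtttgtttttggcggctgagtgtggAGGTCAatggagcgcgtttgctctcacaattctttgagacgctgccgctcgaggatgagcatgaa
ace-1: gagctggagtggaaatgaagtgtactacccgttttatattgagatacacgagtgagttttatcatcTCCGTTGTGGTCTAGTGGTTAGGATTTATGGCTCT
unc-4: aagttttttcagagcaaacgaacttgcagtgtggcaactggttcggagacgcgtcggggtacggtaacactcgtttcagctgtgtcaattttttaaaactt
vab-7: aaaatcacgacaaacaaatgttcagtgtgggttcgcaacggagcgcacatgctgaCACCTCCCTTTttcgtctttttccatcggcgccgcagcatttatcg
mab-9 at -3807 bp: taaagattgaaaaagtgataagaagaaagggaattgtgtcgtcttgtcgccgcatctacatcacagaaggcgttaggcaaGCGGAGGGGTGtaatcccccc
mab-9 at -3216 bp: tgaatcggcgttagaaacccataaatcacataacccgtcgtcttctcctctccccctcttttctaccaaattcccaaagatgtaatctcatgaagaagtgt
mab-9 at -39 bp: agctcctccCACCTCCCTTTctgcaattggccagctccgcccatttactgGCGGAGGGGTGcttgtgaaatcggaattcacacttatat

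Optimal peaks lay in the windows of 5 of the 10 cholinergic genes, near the share of all genes. The 5 genes were cho-1, ace-1, unc-4, vab-7 and mab-9, against 51.5% of all protein-coding genes by the same rule. The genes without one were unc-17, cha-1, ace-2, unc-3 and bnc-1. A promoter window, from 2000 bp upstream to 500 bp downstream of a transcript start, held an optimal summit at 1 of the 10 genes, mab-9, against 25.5% of all genes. Counting only summits whose nearest coding start was that of the gene itself, mab-9 was again the only gene of the 10, against 21.8% of all genes. The first share is thus at the background, and the others are counts of 1 gene. The windows of the 10 genes were long, with a median of 18069.5 bp against 14027 bp for all genes. Per length, they held 4.93 optimal summits per 100 kb, against 5.98 across the nuclear genome.

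The members' windows held 8 optimal peaks in all, of which 7 were intergenic. For 2 of the 8 the nearest coding start belonged to one of the 10 genes, and for 6 it belonged to another gene. Neither that split nor the intergenic count was taken over the windows of all genes, so neither is a trait of these 10. By gene, 51.5% of all genes had an optimal summit in the window and 21.8% had one nearest to their start. The relaxed pooled list gave another picture. It placed a summit in the windows of 8 of the 10 genes, all but unc-3 and bnc-1, against 66.8% of all genes. In promoter windows it also did so for 8 of the 10, against 43.2% of all genes. In both counts unc-17 and cha-1 enter as 2 genes on the same summits. Pooled summits numbered 73 over the 9 loci, or 45.0 per 100 kb, against 29.9 per 100 kb of the genome. Most summits called at these genes were therefore below the optimal list. The same holds for the whole pooled list, with 30000 peaks against 5993 optimal ones, so it is no trait of these genes.

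**Figure D1:**
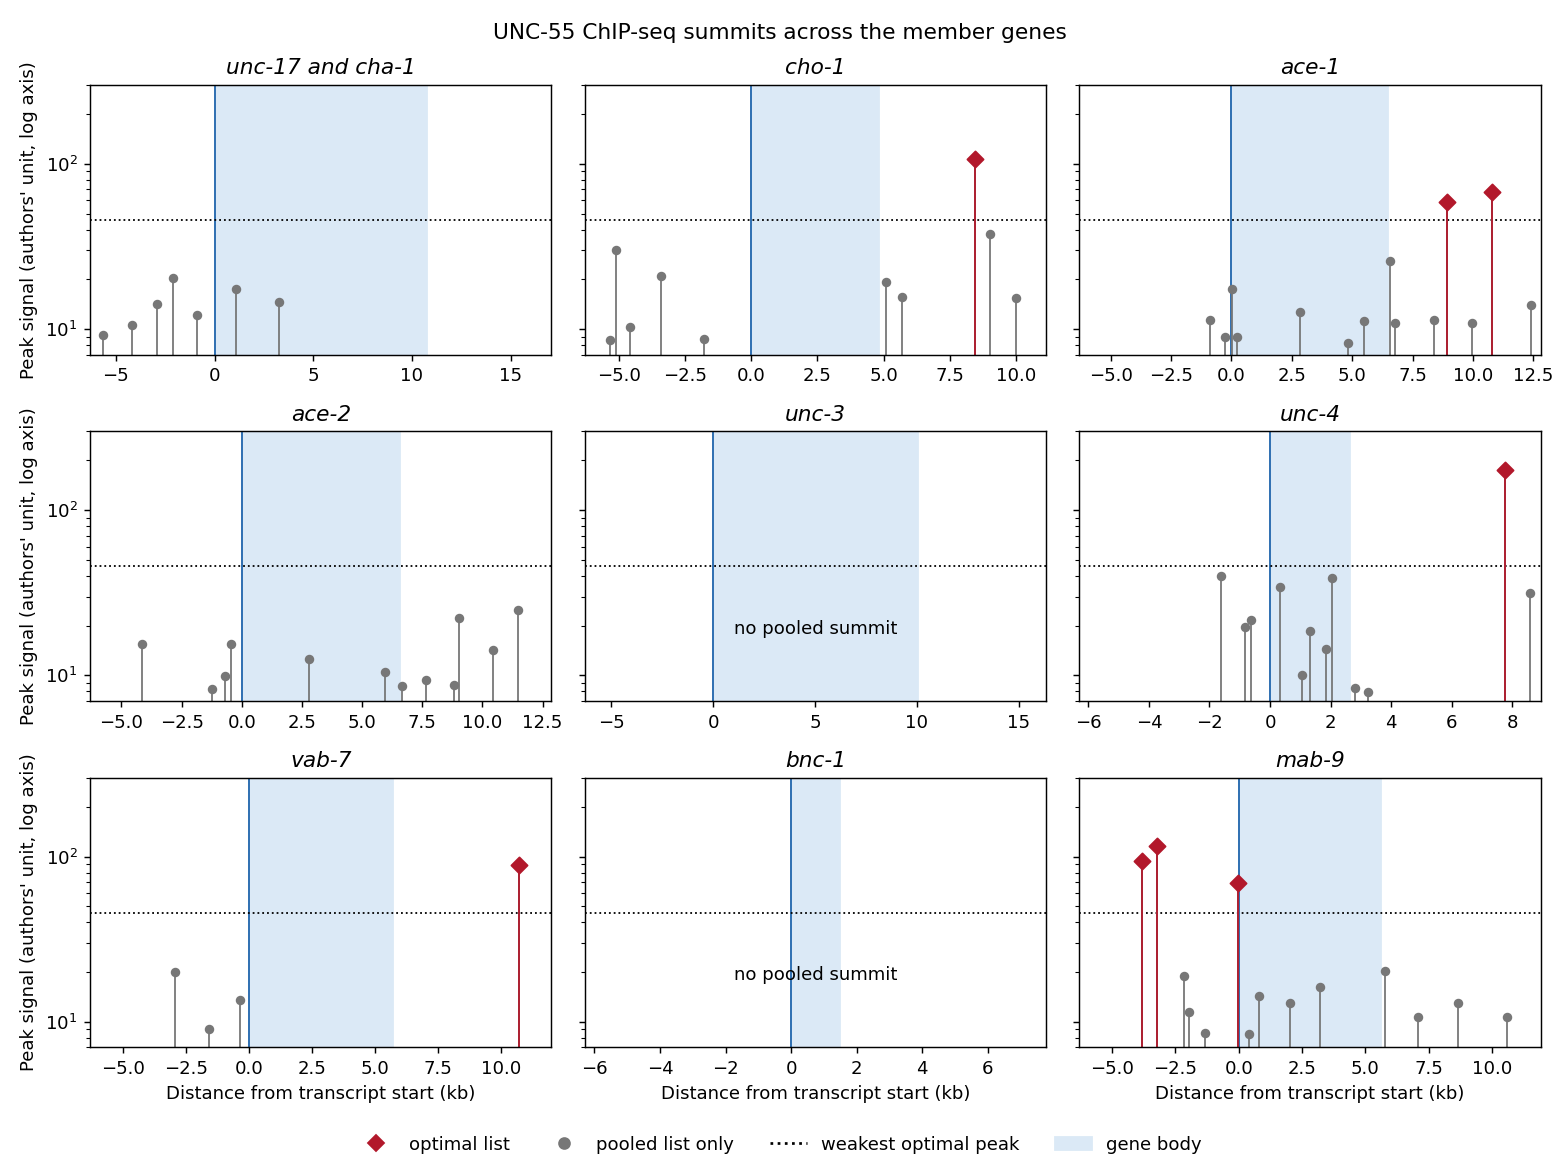
Summits around each gene, with distance from the transcript start in kb (positive downstream) on the x axis and the authors' peak signal on a log y axis; shading is the gene body. Red diamonds are optimal peaks, grey points are peaks of the pooled list alone, and the dotted line is the weakest optimal peak at 45.8. Optimal peaks sit beyond the 3′ end of cho-1, ace-1, unc-4 and vab-7, and upstream of mab-9, while unc-3 and bnc-1 hold no pooled summit.

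Acetylcholine is made and packaged by the products of a single locus. The gene unc-17 encodes the vesicular acetylcholine transporter (WBGene00006756, chrIV:3618259-3624699, minus strand), and cha-1 encodes choline acetyltransferase (WBGene00000481, chrIV:3613931-3624697, minus strand). Their annotated starts lie 2 bp apart, so a summit near either start cannot be given to one of them. The locus held 7 pooled summits, with signals from 9.26 to 20.2, all below the weakest optimal peak at 45.8.

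The strongest pooled summit of the unc-17 and cha-1 locus lay 2076 bp upstream of the unc-17 start in intergenic sequence, at rank 11958 and with a q-value of 0.0853. In replicate 1 the strongest summit was at the same base, with a signal of 17.1 and rank 8901. In replicate 2 the strongest was elsewhere, 1093 bp inside the locus in an intron, with a signal of 10.1 and rank 10308. In replicate 3 it was 880 bp upstream, with a signal of 3.04 and rank 18655. The replicates thus did not share a leading site here, and none of these summits was among a replicate's strongest 5993. Over all genes, 40.8% had a weaker strongest pooled summit in their window, or none.

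The choline transporter gene cho-1 (WBGene00000501, chrIV:13209730-13214566, minus strand), which takes up choline for reuse, had 1 optimal peak. It lay at chrIV:13206045-13206160, with a signal of 107.5 and rank 3034, in intergenic sequence 8470 bp downstream of the cho-1 start and beyond its 3′ end. The nearest coding start was that of ced-3, a caspase gene of programmed cell death, at 1959 bp. The peak ranked 3008, 3903 and 2370 in replicates 1, 2 and 3, with signals of 59.4, 28.8 and 22.8. All 3 replicates thus placed it among their strongest 5993.

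Closer to the start of cho-1 itself, the called summits were weak. The strongest pooled summit nearest to that start had a signal of 20.9 and rank 11545, at 3398 bp upstream, with a q-value of 0.0722. In replicates 1, 2 and 3 the best such summits had signals of 12.1, 7.37 and 2.48, and ranks of 12966, 14812 and 21887. None reached the strongest 5993 of its list.

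Acetylcholine is cleared by acetylcholinesterases, 2 of which are encoded by ace-1 and ace-2. Both optimal peaks of ace-1 (WBGene00000035, chrX:16367293-16373789, plus strand) lay beyond its 3′ end and next to sur-7, which encodes a protein of the cation diffusion facilitator family. The first, chrX:16376050-16376385, had a signal of 58.6 and rank 5063, 8925 bp downstream of the ace-1 start and 370 bp from the start of sur-7. It ranked 5939 in replicate 1, 20444 in replicate 2 and 4262 in replicate 3, with signals of 27.5, 5.41 and 13.5. Replicate 2 was the low one.

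The second ace-1 peak, chrX:16377929-16378264, had a signal of 67.3 and rank 4569, 10804 bp downstream of the ace-1 start. Its summit fell in a coding exon of sur-7, 16 bp from a tRNA gene (WBGene00022977, chrX:16378113-16378184) and 11 bp from the noncoding RNA gene F01G12.15. It ranked 4423, 4636 and 7943 in replicates 1, 2 and 3, with signals of 39.6, 24 and 6.99, and here replicate 3 was the low one. Each of the ace-1 peaks therefore missed the strongest 5993 of 1 replicate. At the ace-1 start the pooled list had a summit of signal 17.5 and rank 13970, 21 bp inside the transcript in the UTR, with a q-value of 0.164. Replicate 1 had such a summit at 31 bp inside, with a signal of 18.7 and rank 8189. The best in replicate 2 was 883 bp upstream, with a signal of 10.3 and rank 10099, and replicate 3 had none that was nearest to ace-1.

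The gene ace-2 (WBGene00000036, minus strand, with 2 annotated starts) had 12 pooled summits and no optimal one. Each distance is to the nearer of the 2 starts. The strongest had a signal of 24.7 and rank 9797. It lay 11460 bp downstream of the inner ace-2 start, with W01B11.6 as its nearest coding gene. Best ranks in the ace-2 window were 8903, 8344 and 7953 in replicates 1, 2 and 3, all outside the strongest 5993. These summits lay 11376, 12020 and 11397 bp downstream of the inner start, and the peak of replicate 2 did not overlap the others. Among pooled summits nearest to ace-2 itself, the strongest was 460 bp upstream of the outer start, with a signal of 15.6, rank 15925 and a q-value of 0.246.

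Among the regulators, unc-3, the terminal selector of cholinergic motor neurons (WBGene00006743, chrX:14773538-14783568, plus strand), had the fewest peaks. Neither the optimal list, the pooled list, replicate 2 nor replicate 3 had a summit in its window of 22031 bp. Replicate 1 had 1 summit, with a signal of 7.16 and rank 22416, 3714 bp upstream in a coding exon of Y16B4A.2. The unc-3 start lay in a stretch of 41.9 kb without a pooled summit, with 4 coding genes wholly inside. Stretches at least that long numbered 318 and made up 22.0% of the nuclear genome, against a median gap of 1120 bp between pooled summits. Replicates 1, 2 and 3 had 6, 3 and 2 summits in this stretch, none of them among the strongest 5993.

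The gene unc-4 (WBGene00006744, chrII:9897751-9900376, minus strand) encodes a homeodomain repressor that acts with the Groucho protein UNC-37 in A-class and VC motor neurons. The strongest optimal peak at any of the 10 genes was in its window, at chrII:9892490-9892706, with a signal of 174.9 and rank 1577. It was intergenic, 7767 bp downstream of the unc-4 start and 169 bp from the start of C08H9.16. It ranked 1252, 3117 and 1344 in replicates 1, 2 and 3, with signals of 105.8, 35.6 and 32.5. The 3 replicates thus all held it among their strongest 5993, with replicate 2 the lowest. Over all genes, 76.2% had a weaker strongest pooled summit in their window, or none.

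Apart from that distal peak, unc-4 had 8 pooled summits nearest to its own start, all below the optimal list. The strongest had a signal of 39.8 and rank 6617, 1635 bp upstream, with a q-value of 0.000227. Others had a signal of 39.1 and rank 6703 at 2034 bp inside the gene, and a signal of 34.2 and rank 7386 at 327 bp inside it, both in introns. In the replicates, the best summits nearest to the unc-4 start were not at 1 shared site. Replicate 1 had its best 2036 bp inside the gene, with a signal of 33.6 and rank 5042. Replicate 2 had a signal of 9.02 and rank 11676 at 762 bp upstream, and replicate 3 a signal of 10.7 and rank 5287 at 1222 bp inside. Within the strongest 5993, replicates 1, 2 and 3 held 1, 0 and 2 such summits.

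The even-skipped homeobox gene vab-7 (WBGene00006873, chrIII:10920344-10926041, plus strand) specifies DB motor neurons. Its optimal peak, chrIII:10930897-10931232, had a signal of 88.5 and rank 3675, in intergenic sequence 10721 bp downstream of the vab-7 start and 136 bp from the start of M142.5. It ranked 3428, 4141 and 4115 in replicates 1, 2 and 3, with signals of 52.8, 27.2 and 14.1. These ranks lay close together, all in the strongest 5993.

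Nearest to the vab-7 start, the strongest pooled summit had a signal of 20.0 and rank 12129, 2924 bp upstream, with a q-value of 0.0935. Replicate 1 had its best at 4769 bp inside the gene, with a signal of 9.99 and rank 15928. Replicate 2 had its best at 367 bp upstream, with a signal of 10.7 and rank 9615. Replicate 3 had its best at 2301 bp inside, with a signal of 4.93 and rank 11597. The positions differed between the replicates, and none ranked within 5993.

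The basonuclin zinc finger gene bnc-1 (WBGene00044791, chrV:12275570-12277046, minus strand) acts downstream of UNC-3 in VA and VB motor neurons, where it represses genes of other classes. It had no summit in the optimal list, the pooled list or replicate 1. Replicates 2 and 3 nevertheless both had a strong one at nearly the same place. In replicate 2 it was chrV:12271495-12271824, with a signal of 33.6 and rank 3342. In replicate 3 it was chrV:12271467-12271802, with a signal of 20.4 and rank 2743. These summits lay 5386 and 5411 bp downstream of the bnc-1 start, and 109 and 84 bp from that of tsfm-1, which encodes a mitochondrial translation elongation factor.

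The bnc-1 start lay in a stretch of 72.0 kb without a pooled summit, holding 17 coding genes. Stretches at least as long numbered 89 and made up 9.94% of the genome. Within it replicates 1, 2 and 3 had 2, 8 and 9 summits, of which 1, 2 and 2 were among their strongest 5993. Across the genome, 158 of the 4384 strongest peaks shared by replicates 2 and 3 had no counterpart in the pooled list, or 3.60%. The share was 2.13% for replicates 1 and 2 and 2.51% for replicates 1 and 3. Why the pooled list lacked this site was not tested, and a count of 0 optimal peaks at bnc-1 is to be read with it.

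The T-box gene mab-9 (WBGene00003106, chrII:516024-521635, plus strand), which acts in motor neurons and in the hindgut, was the one gene of the 10 with optimal peaks nearest to its own start. Its window held 3 optimal peaks, all intergenic and upstream, and 2 of them were nearest to mab-9. The outermost, chrII:512171-512332, had a signal of 94.1 and rank 3481, 3807 bp upstream of the start. It was slightly nearer to the start of srh-105, a chemoreceptor gene, at 2887 bp. It ranked 3083, 4238 and 4912 in replicates 1, 2 and 3, with signals of 58.1, 26.5 and 11.6.

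The second mab-9 peak, chrII:512721-512881, was the strongest, with a signal of 115.7 and rank 2804, 3216 bp upstream and nearest to mab-9. Its ranks of 2742, 2689 and 2750 in replicates 1, 2 and 3 were the closest together of the 8 peaks, with signals of 64.2, 40.8 and 20.3. The third, chrII:515817-516152, had its summit 39 bp upstream of the start, with a signal of 69.0 and rank 4503. It ranked 3349 in replicate 1, 7549 in replicate 2 and 6477 in replicate 3, with signals of 53.9, 13.6 and 8.55. The promoter peak of mab-9 thus had a match in all 3 replicates but was among the strongest 5993 in replicate 1 alone. It is the only promoter peak counted among the 10 genes.

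**Figure D2:**
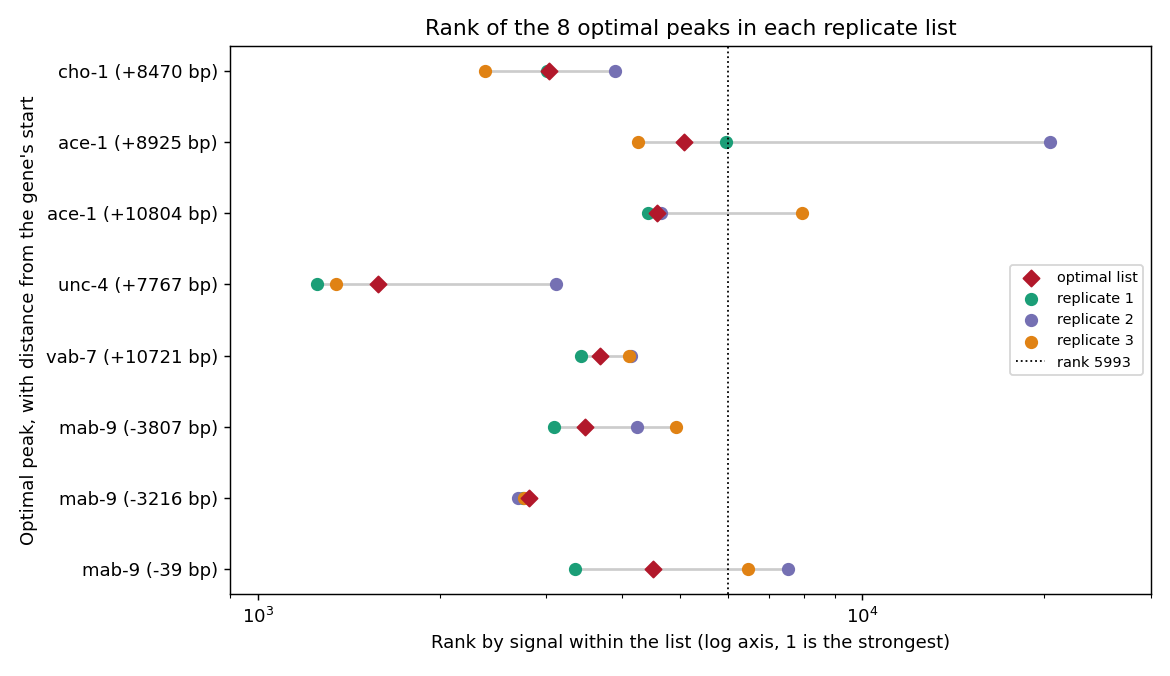
Rank of each of the 8 optimal peaks (rows, with the distance of the summit from the start of the gene in bp, negative upstream) in the optimal list and in replicates 1, 2 and 3, on a log axis where 1 is the strongest. The dotted line is rank 5993; the peak 8925 bp downstream of the ace-1 start in replicate 2 (rank 20444), the other ace-1 peak in replicate 3, and the mab-9 promoter peak in replicates 2 and 3 fall to its right.

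The 8 optimal peaks were matched in the replicate lists in 24 of 24 cases, counting a replicate peak that covered at least 50% of the optimal peak as a match. Of these matches, 20 were among the strongest 5993, with 8, 6 and 6 in replicates 1, 2 and 3. Summits shifted by at most 38 bp between an optimal peak and its match. The optimal list was made from these replicates, so the matches are no independent evidence.

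Each replicate's own strongest 5993 gave nearly the same genes. In replicate 1 they reached the windows of 5 genes, cho-1, ace-1, unc-4, vab-7 and mab-9, against 52.3% of all genes. In replicates 2 and 3 bnc-1 came in as well, giving 6 genes each, against 52.9% and 52.8%. The mean was 5.67 ± 0.577 genes of 10 (SD, n = 3), against 52.6% ± 0.300 of all genes. Summits nearest to the gene's own start were found for 2 genes in replicate 1 (unc-4 and mab-9), 1 in replicate 2 (mab-9) and 2 in replicate 3 (unc-4 and mab-9). The same rule gave 21.9%, 22.0% and 21.8% of all genes in replicates 1, 2 and 3. No strongest peak in any replicate reached the windows of unc-17, cha-1, ace-2 or unc-3.

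**Figure D3:**
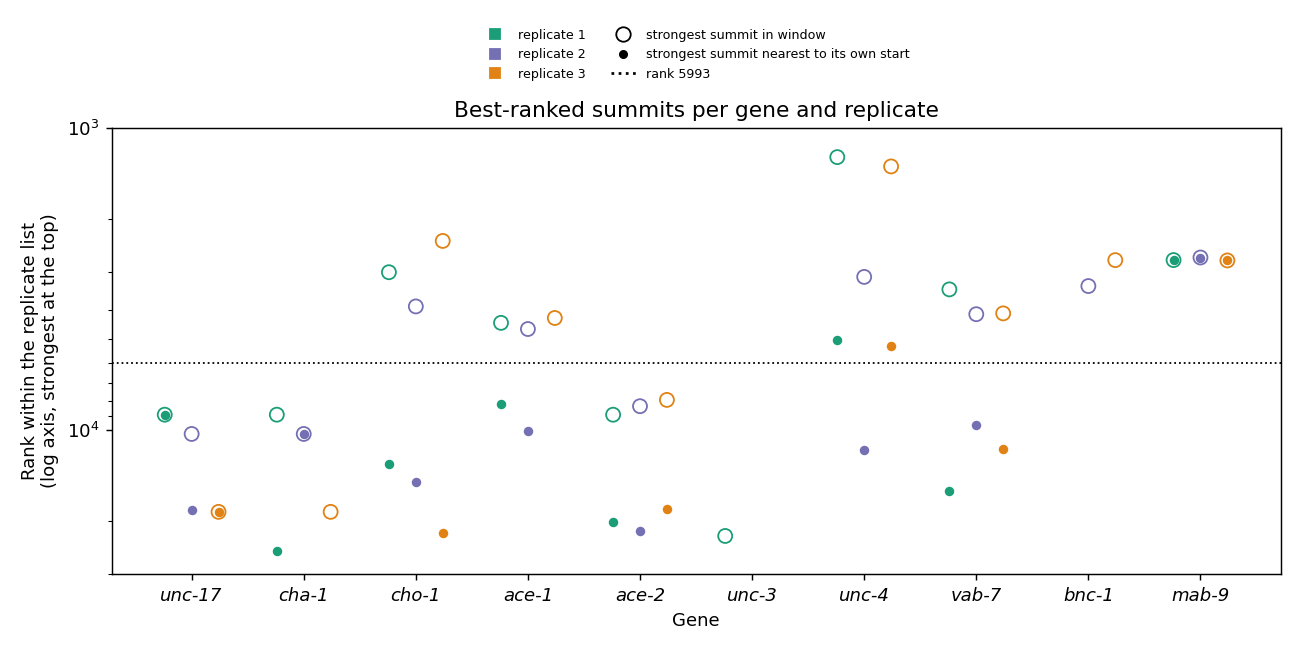
Best rank in each replicate list for each of the 10 genes, on a log axis with the strongest at the top. Open circles are the strongest summit anywhere in the window and filled points the strongest one nearest to the gene's own start; only mab-9 has both together above rank 5993 (dotted) in all 3 replicates, and bnc-1 has open circles in replicates 2 and 3 alone.

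The printed windows shared little sequence. AGGTCA occurred within 50 bp of the summit, on either strand, at 82 of the 5993 optimal summits (1.37%). Among the 8 peaks at the cholinergic genes it occurred at 1, the peak beyond cho-1, as printed above. The COE palindrome, TCCC and GGGA with any 2 bases between them, is recognised by the family to which UNC-3 belongs. It reads alike on both strands, and it occurred at 5 optimal summits (0.0834%) and at none of the 8. A match describes letters and is not a bound site.

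The 28 pairs of summit windows, compared on both strands, shared runs of at most 11 bases. The runs of that length were GCGGAGGGGTG, in the mab-9 windows 3807 bp and 39 bp upstream of the start, and CACCTCCCTTT, in the vab-7 window and the mab-9 window at 39 bp. Each occurred in 2 of the 5993 optimal summit windows (0.0334%), so at no optimal summit beyond the pair in which it was found. GC content of the 8 windows ran from 41.6% to 52.8%, against a median of 43.6% and quartiles of 37.6% and 49.5% over all optimal summits. The 52.8% belongs to the mab-9 window at 39 bp, which is cut to 89 bp where the others have 101 bp.

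Outside the summits, the COE palindrome occurred in the windows of unc-17 and cha-1, bnc-1 and mab-9, and in none of the other members' windows. The share of all gene windows that hold it was not counted. The matches are therefore given as letters alone, and binding of UNC-3 at them was not tested. At the unc-17 and cha-1 locus it stood at chrIV:3621926-3621935, 506 bp from a pooled summit, and at chrIV:3627664-3627673, 2970 bp upstream of the unc-17 start. This second match was 77 bp from a weak pooled summit, with a signal of 14.2 and rank 17651. At bnc-1 it stood at chrV:12277229-12277238, 188 bp upstream of the start, with the nearest pooled summit 9819 bp away. At mab-9 it stood at chrII:510977-510986, 1235 bp from the nearest pooled summit.

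Further genes of related function were listed for comparison. The 10 cholinergic identity genes had an optimal summit in the window at 5 and in a promoter window at 1. For 10 other genes, listed as the acetylcholine cycle, the counts were 7 and 5. Over all protein-coding genes the shares were 51.5% and 25.5%. That list includes the choline kinase genes cka-1, cka-2 and ckb-1 to ckb-4, whose products act on choline and not on acetylcholine. The 7 were chtl-1, snf-6, cka-2 and ckb-1 to ckb-4, so most were choline kinase genes. The 5 were snf-6, cka-2, ckb-1, ckb-3 and ckb-4. The acetylcholinesterase genes ace-3 and ace-4 had no optimal summit. The strongest of that list was at snf-6, an acetylcholine transporter of muscle, with a signal of 146.2 at 461 bp upstream. A signal of 142.6 beside the choline transporter-like gene chtl-1 was nearest to jkk-1. The neighbouring choline kinase genes ckb-1, ckb-2 and ckb-3 each had 2 optimal summits in the window. Their strongest was the same peak, with a signal of 92.6, 32 bp upstream of ckb-1, so they are not separate counts among the 7.

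Of 14 genes known from cholinergic motor neurons, 6 had an optimal summit in the window, against 51.5% of all genes. In a promoter window 4 had one, against 25.5%. The pooled list reached 8 of the 14 windows, against 66.8% of all genes. It had no summit at acr-2, acr-14, unc-129, del-1, dbl-1 or glr-4. The replicate lists were not set beside it for these genes, and it can lack a site that replicates share, as at bnc-1. The highest optimal signal was 204.4, beside the acetylcholine receptor gene acr-12 and nearest to pab-2. Next was 171.4 beside the TGF-β family gene tig-2, nearest to F39G3.3. At madd-4, which organises neuromuscular synapses and has 3 annotated starts, the signal was 148.5. That summit was intronic and lay 1184 bp before one of the inner starts. At the axon guidance gene unc-53 it was 113.5 at 654 bp upstream.

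Of 10 other regulators of motor neuron class, 7 had an optimal summit in the window, against 51.5% of all genes. One nearest to their own start was found for 7, against 21.8%, and one in a promoter window for 3, against 25.5%. Those without an optimal summit were ceh-12, irx-1 and unc-55 itself, and ceh-12 and unc-55 had no pooled summit either. Here too the replicate lists were not set beside the pooled list. The optimal signal was 291.9 at 274 bp upstream of unc-37, whose product is the partner of UNC-4. It was 221.6 at 25 bp upstream of unc-30, a homeodomain regulator of GABA motor neurons, and 219.4 at 1621 bp upstream of the Hox gene lin-39. Beside the ARID gene cfi-1 a signal of 158.5 was nearest to his-68. Of 4 genes that give GABA neurons the same functions, 2 had an optimal summit in the window, against 51.5% of all genes. The signal was 278.3 beside unc-47, the vesicular GABA transporter gene, nearest to epac-1, and 123.1 at 147 bp upstream of unc-25, the GABA synthesis gene. These counts are of few genes and were not tested against one another.

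**Figure D4:**
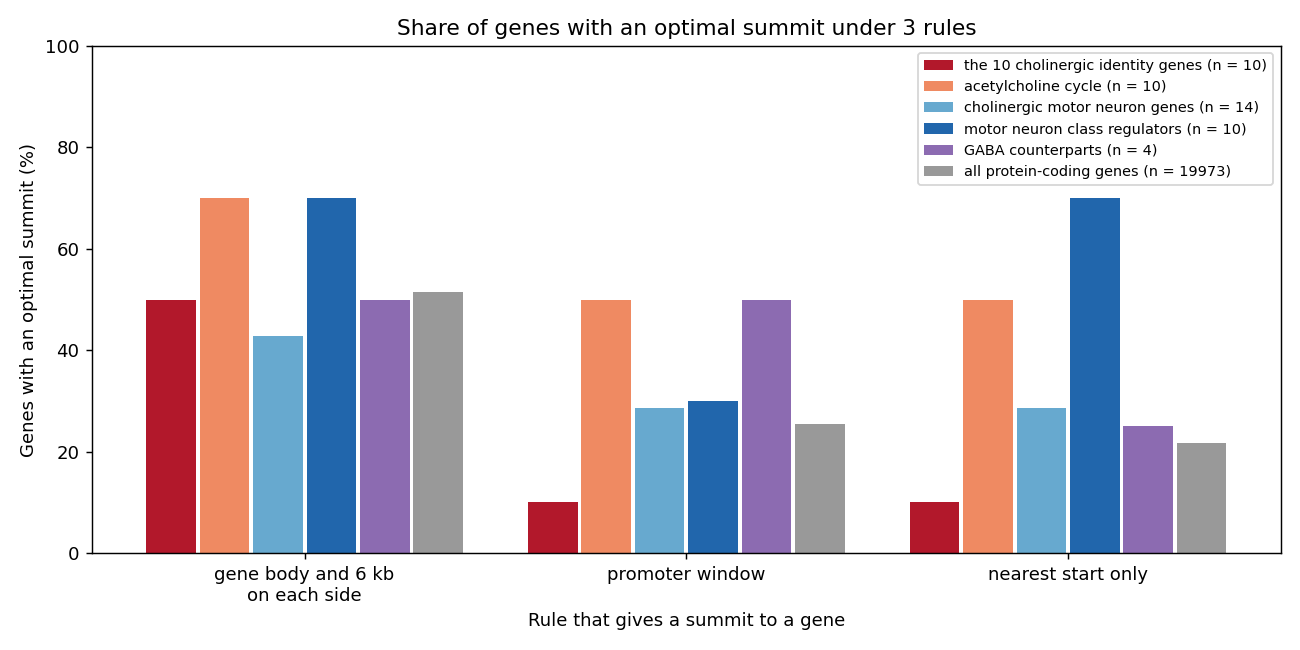
Share of genes with an optimal summit (%, y axis) under 3 rules for giving a summit to a gene, for the 10 cholinergic identity genes, 4 related lists and all 19973 protein-coding genes. For the cholinergic identity genes the share is 5 of 10 with the 6 kb window, near the 51.5% of all genes, and 1 of 10 under the other rules.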

How the data were processed

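ChIP-seq peaks of UNC-55 in L2 larvae were taken from 5 narrowPeak lists in ce11. Per the notes deposited with the files, each replicate was called against 1 shared control, the pooled list on all 3 replicates together, and the optimal list holds peaks past the authors' irreproducible discovery rate threshold. Caller, aligner and versions: not given in the sources used here. Each peak has a signal and a −log10 q-value, both as deposited, and the second was converted to a q-value here. No read counts were given, so sequencing depth is unknown and no interval was computed. The ce10 lists and the control reads were not used here.

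Gene positions came from Ensembl release 115, the sequence from the RefSeq WBcel235 assembly. Summits were assigned with Python 3.11.15, pandas 2.3.3 and numpy 2.4.6, and the counting was tested on simulated peaks. A gene counted when a summit lay in its body or within 6 kb. Nearest starts were those of protein-coding genes. The members and lists were chosen with earlier results of these data known, so no test was made over them. The text names all 10 genes, every optimal summit or otherwise the strongest pooled one, up to 4 genes of highest signal per related list, and the nearest gene of each peak; genes beyond these were named after their values were seen. Labels call the replicates biological and say no more of their origin.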

Additional observations from a re-analysis of the deposited data

How the results depend on the processing

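Of the 10 cholinergic genes, 5 had an optimal summit within 6 kb, against 51.5% of all genes. With 3 kb on each side this became 2 (ace-1 and mab-9), against 38.6%, and in the gene body alone 0, against 6.81%. It became 1 in a promoter window, against 25.5%, 1 with the nearest start only, against 21.8%, 8 with the pooled list, against 66.8%, and 2 with the strongest 2996 optimal peaks (unc-4 and mab-9), against 37.9%. Requiring the strongest peaks of both other replicates, leaving out each replicate in turn, gave 4 to 5, against 41.2% to 43.7% of all genes, and ace-1 was lost without replicate 1. The promoter count of 1 became 0 with the strongest 2996 peaks, 8 with the pooled list, and 0 to 0 when any replicate was left out. For all genes, 10285 became 1361 in the gene body alone, 5094 in promoter windows and 4355 by nearest start. The acetylcholine cycle list with its choline kinase genes (7) gave 1 in the gene body alone and 2 with the strongest 2996 peaks. The cholinergic motor neuron genes (6) gave 2 in the gene body alone. The class regulators (7) gave 2 in the gene body alone and 3 in promoter windows. The GABA genes (2) gave 0 in the gene body alone, 1 by nearest start, and 0 to 1 with a replicate left out. The remaining 52 settings moved no count by more than 1.5 times. No paired analysis was possible because the series has a single group. Depth is unknown, so a missing peak does not show missing binding, and whole larvae do not show which cells gave a peak.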
